A study of Mus musculus with 32 samples.

Results

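The genes described here are those of the TAM receptor kinases Axl, Mertk and Tyro3, of their ligands Gas6 and Pros1, and of Mfge8, a bridging protein of the same clearance pathway. They are 6 of the 42524 genes in the count table and were taken by name, through the gene identifiers that the annotation pairs with their symbols. All 6 passed the filter on low counts, with between 278 counts (Mertk) and 7130 counts (Axl) in a library. The spinal cord RNA came from 32 mice on the C57BL/6J background in 8 groups of 4, given by genotype, treatment and age. Wildtype (WT) littermates were compared with transgenic G93A mice, which carry human SOD1 with the G93A mutation and model amyotrophic lateral sclerosis. Mice of each genotype were untreated or received OKN-007, a nitrone with antioxidant and anti-inflammatory properties, in the drinking water. The labels give the ages as 90 and 155 days, the later of which precedes end stage, while the study's text places the earlier harvest a few days later than the labels do. Each library came from a piece of whole spinal cord, and the level of the piece is not given in the sources used here. The dose given to the sequenced mice is not named in the sources used here, and the study's mice were mostly female.

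TAM receptors are tyrosine kinases of the cell surface that recognise phosphatidylserine (PS) on dying cells through a bridging ligand. Gas6 and protein S (the product of Pros1) bind PS through a vitamin K-dependent Gla domain, and Gas6 binds all members of the receptor family, whereas protein S acts mainly through Tyro3 and Mertk. Mfge8 also binds PS but engages integrins rather than TAM receptors. In the central nervous system, Mertk and Axl are known for engulfment by microglia and for restraint of inflammatory signalling, Mertk also acts in astrocytes, and Tyro3 is mostly neuronal.

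The genes lie apart in the genome. In the GENCODE M21 annotation of GRCm38, Axl (ENSMUSG00000002602) lies on the minus strand of chromosome 7 from 25757273 to 25788705, and Mfge8 (ENSMUSG00000030605) on the minus strand of the same chromosome from 79133768 to 79149060. Mertk (ENSMUSG00000014361, 128698956 to 128802894) and Tyro3 (ENSMUSG00000027298, 119797733 to 119818104) share the plus strand of chromosome 2. Gas6 (ENSMUSG00000031451) lies on the minus strand of chromosome 8 from 13465374 to 13494490, and Pros1 (ENSMUSG00000022912) on the plus strand of chromosome 16 from 62854307 to 62929346. Exons of Gas6 overlap exons of Tmem255b on the opposite strand. Tmem255b was at 1.23 ± 0.25 CPM (SD, n = 4) in untreated G93A mice at 155 days, against 207.2 ± 17.6 CPM (SD, n = 4) for Gas6.

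The promoters of Axl, Pros1 and Mertk are shown because these genes were higher in G93A mice at 155 days, and that of Tyro3 because it is the receptor that did not pass the test in that comparison. Each is 300 bases long, 250 before and 50 after the RefSeq start site, on the strand of the gene and in the build GRCm38.p6. Their positions are chr7:25788684-25788983 (minus), chr16:62854057-62854356 (plus), chr2:128698665-128698964 (plus) and chr2:119799264-119799563 (plus). The RefSeq start of Tyro3 lies downstream of the gene's start in M21 (119797733), so this window lies inside the gene as M21 places it. Capitals mark matches, on either strand, to any of the motifs searched.
Axl: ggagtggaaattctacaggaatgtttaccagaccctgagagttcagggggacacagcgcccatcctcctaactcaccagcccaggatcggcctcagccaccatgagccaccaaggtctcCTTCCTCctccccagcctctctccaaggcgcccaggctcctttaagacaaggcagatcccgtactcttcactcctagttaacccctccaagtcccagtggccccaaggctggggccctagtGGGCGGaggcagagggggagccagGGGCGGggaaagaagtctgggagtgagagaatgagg
Pros1: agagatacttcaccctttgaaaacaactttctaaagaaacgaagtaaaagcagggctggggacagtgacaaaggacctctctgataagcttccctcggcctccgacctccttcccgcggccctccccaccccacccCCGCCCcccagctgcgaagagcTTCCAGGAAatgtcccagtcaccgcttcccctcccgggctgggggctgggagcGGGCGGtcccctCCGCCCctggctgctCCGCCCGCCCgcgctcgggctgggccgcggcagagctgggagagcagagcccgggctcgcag
Mertk: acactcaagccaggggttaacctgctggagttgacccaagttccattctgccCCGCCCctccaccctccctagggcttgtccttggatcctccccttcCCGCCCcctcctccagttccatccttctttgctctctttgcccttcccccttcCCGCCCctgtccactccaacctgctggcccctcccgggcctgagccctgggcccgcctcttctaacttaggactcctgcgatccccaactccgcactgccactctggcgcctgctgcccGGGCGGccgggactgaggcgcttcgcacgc
Tyro3: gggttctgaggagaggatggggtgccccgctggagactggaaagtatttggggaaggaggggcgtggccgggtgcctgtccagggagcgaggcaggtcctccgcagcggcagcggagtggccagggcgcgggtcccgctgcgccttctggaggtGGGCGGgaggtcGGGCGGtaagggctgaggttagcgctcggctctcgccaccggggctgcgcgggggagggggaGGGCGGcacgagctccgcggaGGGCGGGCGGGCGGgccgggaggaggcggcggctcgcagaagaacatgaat
The motifs were AP-1 (TGANTCA), STAT (TTCNNNGAA), a glucocorticoid element, the Sp1 box (GGGCGG), a PU.1 core (GAGGAAG), the TATA box (TATAAA) and an LXR direct repeat. Pros1 held the STAT letters TTCCAGGAA starting 92 bases before the start site, a match found in 8.30% of the 32851 promoters of the same length. Axl held a PU.1 core on the opposite strand, which 13.6% of all promoters hold. All 4 sequences held the Sp1 box, present in 35.7% of all promoters. Adjacent Sp1 boxes share bases in Tyro3 and Pros1. AP-1, TATA, glucocorticoid and LXR letters had no match in these windows, and they were found in 7.81%, 13.6%, 0.475% and 0.0152% of all promoters. These are matches of letters in a short window, not measured sites.

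Libraries held between 19701722 and 30138257 counts, and levels are given as CPM, the count scaled to the size of the library after TMM normalization. At 3 counts in the smallest library the limit of detection was 0.152 CPM, for counting error only, far below every value of the 6 genes. Group differences were tested in edgeR with the quasi-likelihood F test (two-sided), with a Benjamini-Hochberg correction across all genes that entered the fit and a threshold of 0.05. The labels do not state that each library is a separate animal, so p-values measure the spread between these libraries, called mice here. In whole spinal cord, more cells of a type and more RNA per cell cannot be told apart. At 155 days, all 8 microglia markers and all 8 activated microglia markers were higher in untreated G93A than in untreated WT mice. So were 7 of 8 astrocyte markers, and 6 of 7 motor neuron markers were lower. Of the 18675 genes tested in this comparison, 21.3% were higher and 18.2% lower. Markers of border macrophages summed to 4.12 to 7.11 CPM in untreated G93A mice and 3.41 to 4.35 CPM in WT mice, and 1 of the 4 tested was higher. The mean log2(CPM + 1) of 6 lumbosacral Hox genes ran from 0.56 to 2.99 in untreated G93A and from 2.95 to 4.16 in untreated WT mice at this age. In treated mice it ran from 1.26 to 2.96 in G93A and from 3.87 to 4.16 in WT mice, without overlap. Alb, a liver gene, reached 139.3 CPM in 1 untreated G93A mouse and 83.8 CPM in 1 treated G93A mouse. The part of these differences in the results below was not tested except where a fit with the Hox score or without the mice with most Alb is named. Because the Hox score hardly overlapped between genotypes at 155 days, a fit with it can hardly separate the score from genotype there. The astrocyte gene Gfap, the myelin gene Mbp and the neuronal gene Rbfox3 were present in all groups. The human SOD1 transgene was not analysed here.

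The first question was whether the clearance receptors and their ligands differ between G93A and WT mice late in disease. At 155 days, Pros1 and Axl rose about as strongly in untreated as in treated G93A mice, Mertk rose with a wide spread, and the estimates for Tyro3, Gas6 and Mfge8 lay between -0.12 and 0.29 on the log2 scale. In untreated mice 3 of the 6 genes passed the test, all higher in G93A, where 39.5% of the 18675 genes tested passed in either direction and 21.3% were higher. In treated mice 4 of the 6 passed, all higher, against 41.5% of genes in either direction and 23.3% higher. The median log2 fold change of the 6 genes was 0.62 in untreated and 0.61 in treated mice, beside 0.00015 and 0.018 over all genes.

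Axl, the receptor that Gas6 binds most tightly, was at 72.3, 72.4, 68.9 and 59.5 CPM in the untreated WT mice and at 186.8, 268.0, 283.1 and 188.2 CPM in the untreated G93A mice at 155 days. Every G93A mouse was above every WT mouse, as for 15.6% of genes in this comparison. The log2 fold change was 1.80 (standard error 0.12, adjusted p = 8.42e-10, edgeR). In mice given OKN-007, Axl was at 64.9, 73.6, 63.9 and 74.9 CPM in WT and at 235.2, 219.5, 234.2 and 203.0 CPM in G93A mice. The groups again did not overlap, as for 20.2% of genes, and the log2 fold change was 1.76 (standard error 0.12, adjusted p = 8.98e-10, edgeR). The 2 untreated G93A mice with the highest Axl were replicates 10 and 11, and the treated G93A mice fell between the extremes of the untreated ones.

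Mertk, the receptor most used by phagocytes for dying cells, varied more than 2-fold among mice of most groups. In untreated mice at 155 days it was at 15.2, 11.8, 14.03 and 35.2 CPM in WT and at 28.5, 42.8, 61.9 and 28.9 CPM in G93A mice. The groups overlapped through 1 WT mouse, replicate 4, and the log2 fold change was 1.12 (standard error 0.32, adjusted p = 0.00983, edgeR). In treated mice Mertk was at 23.5, 15.2, 14.1 and 34.1 CPM in WT and at 40.8, 43.2, 43.0 and 29.2 CPM in G93A mice, and the groups overlapped through WT replicate 8 and G93A replicate 16. The log2 fold change was 0.92 (standard error 0.32, adjusted p = 0.0273, edgeR). This call was lost when WT replicate 6 or 7 or G93A replicate 13, 14 or 15 was left out, with log2 fold changes from 0.76 to 0.89 and adjusted p-values from 0.0606 to 0.0904, and also without the 3 mice with most Alb (0.84, adjusted p = 0.0631). The 3 mice are 1 untreated and 1 treated G93A mouse at 155 days and 1 treated WT mouse at 90 days.

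Tyro3, the receptor with its main expression in neurons, did not pass the test in either comparison. It was at 68.7, 69.4, 73.8 and 58.1 CPM in untreated WT and at 62.3, 61.9, 51.3 and 64.4 CPM in untreated G93A mice at 155 days. The ranges overlapped, and the log2 fold change was -0.12 with a 95% interval from -0.31 to 0.07. In treated mice Tyro3 was at 64.5, 71.3, 62.8 and 64.3 CPM in WT and at 66.3, 56.0, 60.9 and 69.4 CPM in G93A mice. The groups overlapped there too, and the log2 fold change was 0.02 with an interval from -0.17 to 0.20. The 5 general neuron markers were all lower in G93A mice in both comparisons, with a median log2 fold change of -0.49 in untreated mice. Over all genes tested, 18.2% were lower in each comparison.

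**Figure D1:**
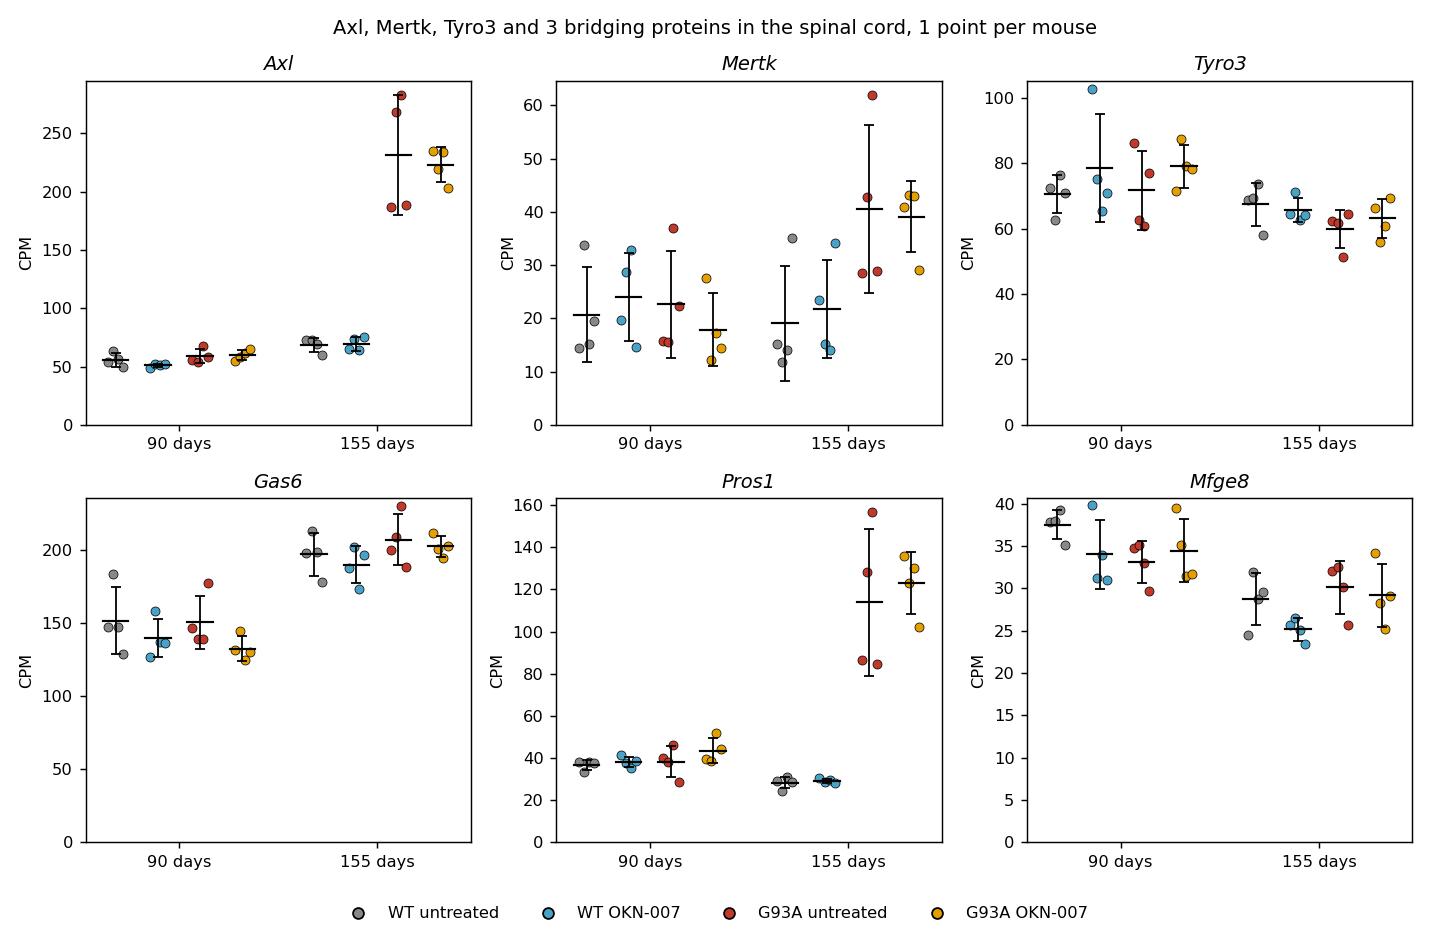
CPM (vertical axes starting at 0) of the 6 genes in each of the 8 groups, with 90 days on the left and 155 days on the right of each panel. Points are mice, horizontal lines are means of 4 mice and bars are SD. At 155 days the G93A mice lie above all WT mice for Axl (186.8 CPM or more against 74.9 CPM or less) and Pros1, and overlap with WT mice for the other genes.

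Pros1, which encodes protein S, was at 29.1, 24.4, 30.7 and 28.5 CPM in untreated WT mice and at 86.3, 128.3, 156.6 and 84.5 CPM in untreated G93A mice at 155 days. Every G93A mouse was above every WT mouse, as for 15.6% of genes, and the log2 fold change was 2.06 (standard error 0.15, adjusted p = 3.87e-09, edgeR). In treated mice it was at 30.3, 28.7, 29.3 and 27.9 CPM in WT and at 135.9, 122.8, 130.4 and 102.3 CPM in G93A mice. The log2 fold change there was 2.15 (standard error 0.15, adjusted p = 1.73e-09, edgeR), again without overlap, as for 20.2% of genes. As with Axl, replicates 10 and 11 were the highest of the untreated G93A mice.

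Gas6, the other vitamin K-dependent ligand, was at 198.4, 213.5, 199.0 and 178.2 CPM in untreated WT and at 200.1, 209.4, 230.4 and 188.9 CPM in untreated G93A mice at 155 days. The groups overlapped, and the log2 fold change of 0.12 had a 95% interval from -0.04 to 0.27. In treated mice Gas6 was at 188.0, 202.6, 173.8 and 196.6 CPM in WT and at 211.9, 200.9, 194.7 and 203.3 CPM in G93A mice, with 2 of 4 G93A mice above all WT mice. The log2 fold change was 0.17, with an interval from 0.01 to 0.32 (adjusted p = 0.0809, edgeR). Without WT replicate 2, the untreated comparison passed the threshold with a log2 fold change of 0.18 (adjusted p = 0.0492, edgeR).

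Mfge8, which links PS to integrins, was at 24.5, 31.9, 28.7 and 29.6 CPM in untreated WT and at 32.02, 32.6, 30.15 and 25.7 CPM in untreated G93A mice. The groups overlapped (log2 fold change 0.11, 95% interval from -0.10 to 0.33), and with the Hox score as a covariate the estimate was -0.05 (adjusted p = 0.814, edgeR). In treated mice it was at 25.6, 26.5, 25.1 and 23.4 CPM in WT and at 34.1, 28.3, 25.2 and 29.1 CPM in G93A mice. That difference passed the test, with 3 of 4 G93A mice above all WT mice and an estimate of 0.29 on the log2 scale (standard error 0.10, adjusted p = 0.0303, edgeR). The call was lost with the Hox score as a covariate (0.12, adjusted p = 0.522, edgeR). The Hox scores of treated G93A (1.26 to 2.96) and WT mice (3.87 to 4.16) did not overlap, so that fit cannot separate the score from genotype. The call was also lost when WT replicate 7 or 8 or G93A replicate 13 or 14 was left out (adjusted p from 0.0572 to 0.159, edgeR). In the 8 G93A mice at 155 days, Mfge8 and the Hox score had a Pearson r of -0.79, a description with no test.

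Averaged over treatments at 155 days, 5 of the 6 genes passed the test, all higher in G93A mice, where 54.7% of all genes passed. The log2 fold changes were 2.11 for Pros1, 1.78 for Axl and 1.02 for Mertk, with standard errors of 0.11, 0.083 and 0.23. Mfge8 at 0.20 (adjusted p = 0.0250, edgeR) and Gas6 at 0.14 (adjusted p = 0.0291, edgeR) also passed, and Tyro3 at -0.05 did not. Gas6 was no longer called without WT untreated replicate 4, WT OKN-007 replicate 7 or G93A untreated replicate 11 (0.12, adjusted p from 0.0552 to 0.0661). With the Hox score as a covariate neither was called (Mfge8 0.04, adjusted p = 0.812, and Gas6 0.11, adjusted p = 0.314, edgeR), though that score hardly overlapped between genotypes. Gas6 was also lost with RLE factors, with no filter and in the fit of all 32 mice (adjusted p from 0.0561 to 0.136, edgeR). Mfge8 was no longer called without any 1 of 5 mice, namely WT untreated replicate 1, WT OKN-007 replicate 8, G93A untreated replicates 9 and 10 and G93A OKN-007 replicate 13 (0.16 to 0.19, adjusted p from 0.0501 to 0.0651).

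**Figure D2:**
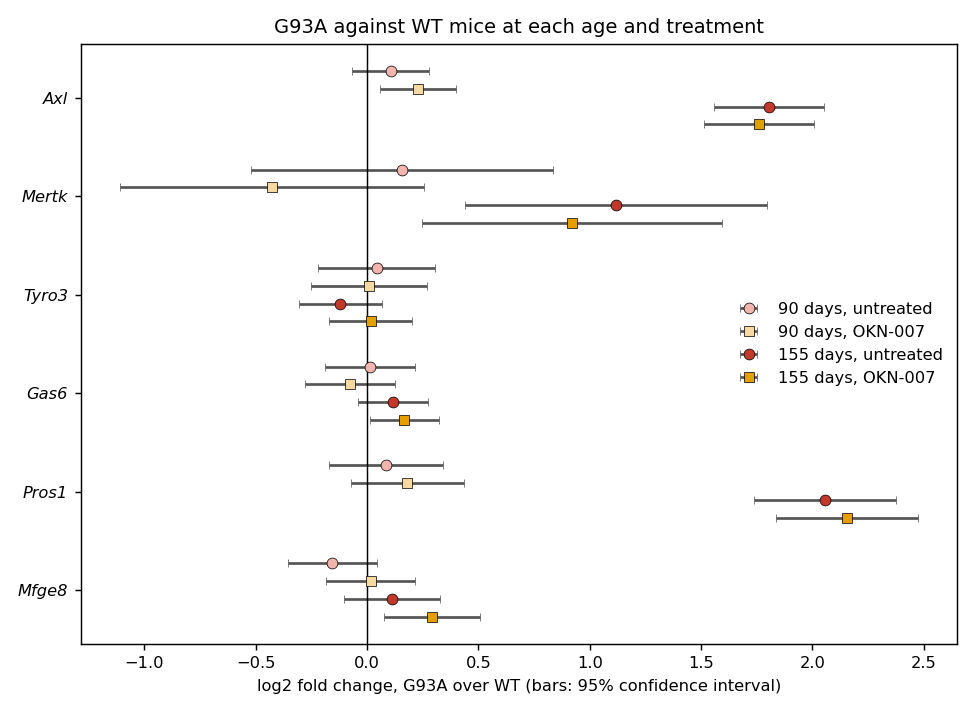
The log2 fold change of G93A over WT mice (horizontal axis) for each gene, by age and treatment. Symbols are edgeR estimates from 4 against 4 mice and bars are 95% confidence intervals; at 155 days the intervals of Axl, Pros1 and Mertk lie above 0 in both treatments, and at 90 days all estimates lie between -0.43 and 0.23.

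At 90 days, none of the 6 genes passed the test between genotypes. In edgeR, 0 of the 18899 genes tested passed in untreated mice and 0 in treated mice (0% called), with 1126 and 747 genes at an unadjusted p under 0.05; DESeq2 called 16 and 3 genes, none of them among the 6. Averaged over treatments, 5 genes passed (0.0265% called), again none of the 6. Axl was at 53.9, 63.3, 56.2 and 49.2 CPM in untreated WT and at 55.5, 54.1, 67.6 and 58.4 CPM in untreated G93A mice, with overlap. In treated mice Axl was at 49.0, 51.9, 50.9 and 52.4 CPM in WT and at 55.1, 58.1, 61.7 and 64.7 CPM in G93A mice, without overlap, as for 1.81% of genes in the same direction, and the log2 fold change was 0.23 (standard error 0.082). That difference had an unadjusted p of 0.0123 in edgeR and an adjusted p of 0.9996. The average over treatments was 0.17 (unadjusted p = 0.0099, adjusted p = 0.563, edgeR). Pros1 had a log2 fold change of 0.09 in untreated and 0.18 in treated mice, with intervals that reached 0.34 and 0.44. Mfge8 was at 37.8, 38.0, 39.2 and 35.1 CPM in untreated WT and at 34.8, 35.07, 33.0 and 29.7 CPM in untreated G93A mice, all below the WT mice as for 1.55% of genes, with a log2 fold change of -0.16 (unadjusted p = 0.116, adjusted p = 0.856, edgeR). Tyro3 was at 0.04 in untreated and 0.0071 in treated mice and Gas6 at 0.01 and -0.08, with intervals that included 0. The widest intervals were those of Mertk, from -0.52 to 0.84 in untreated and from -1.11 to 0.25 in treated mice.

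The difference between ages was tested directly as an interaction in a fit of all 32 mice. The G93A change grew from 90 to 155 days by 1.69 on the log2 scale for Axl (standard error 0.15, adjusted p = 1.33e-09, edgeR) and by 1.96 for Pros1 (standard error 0.20, adjusted p = 1.72e-08, edgeR) in untreated mice. In treated mice it grew by 1.501 for Axl (adjusted p = 6.05e-09) and by 1.94 for Pros1 (adjusted p = 1.28e-08), both in edgeR. These were 2 of the 6 genes in each case, where 21.2% and 23% of 19829 genes passed. The estimates for Mertk, 0.95 in untreated (adjusted p = 0.177, edgeR) and 1.32 in treated mice (adjusted p = 0.0541, edgeR), did not pass. The first passed without WT untreated replicate 4 at 155 days (1.45, adjusted p = 0.0289). The second passed without 1 of 4 mice, WT OKN-007 replicate 8 or G93A OKN-007 replicate 13 at 90 days or WT OKN-007 replicate 8 or G93A OKN-007 replicate 16 at 155 days (adjusted p from 0.0237 to 0.0430). It also passed with the replicate number as a block (1.39, adjusted p = 0.0374, edgeR). That block pairs different mice of the ages by a number whose meaning the labels do not give. For Tyro3, Gas6 and Mfge8 the estimates lay between -0.18 and 0.26.

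In WT mice alone, 4 of the 6 genes differed between 155 and 90 days, where 44.2% of all genes did. Gas6 was higher at 155 days by 0.41 (standard error 0.065, adjusted p = 8.53e-06, edgeR) and Axl by 0.37 (standard error 0.074, adjusted p = 0.000164, edgeR). Mfge8 was lower by 0.41 and Pros1 by 0.38 (log2 fold changes -0.41 and -0.38, adjusted p = 2.83e-05 and 0.00234, edgeR). Pros1 was thus lower with age in WT mice, from 36.6 ± 2.2 to 28.2 ± 2.7 CPM when untreated (SD, n = 4 each), and its highest level of any group was in G93A mice at 155 days. Tyro3 and Mertk did not pass, although Tyro3 did without WT OKN-007 replicate 7 at 90 days (-0.20, adjusted p = 0.0473). The ages cannot be told apart from any difference in how the mice of each age were collected or sequenced, and the summed astrocyte markers of untreated WT mice also went from between 6207 and 7232 CPM at 90 days to between 4739 and 5207 CPM at 155 days. In the same mice the summed oligodendrocyte markers were at 32576 to 39638 and at 21108 to 23591 CPM, and the Hox score ran from 1.30 to 3.60 and from 2.95 to 4.16, at 90 and 155 days. Their part in the age differences was not tested.

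The next question was whether OKN-007 moved these genes. None of the 6 passed the test in any of the 4 comparisons of treated with untreated mice or in the interactions of genotype with treatment, and none was at an unadjusted p under 0.05 in edgeR. In edgeR, 0 of all genes passed in each of these (0% called), with 437 to 1050 genes at an unadjusted p under 0.05, and DESeq2 called between 0 and 2 genes, none of the 6. In G93A mice at 155 days the treated minus untreated log2 difference was -0.04 for Axl (95% interval -0.28 to 0.20), 0.12 for Pros1 (-0.18 to 0.42) and -0.04 for Mertk (-0.70 to 0.62). The interval was widest for Mertk. The smallest unadjusted p among the 6 genes was 0.0531, for Gas6 in G93A mice at 90 days, with a log2 fold change of -0.20 (95% interval -0.40 to 0.0029). Next was Mfge8 in WT mice at 155 days, at -0.21 (unadjusted p = 0.0534, edgeR). For Tyro3 the treated minus untreated difference lay between -0.06 and 0.16 in the 4 comparisons. At 155 days the interaction was -0.04 for Axl, 0.10 for Pros1 and -0.20 for Mertk, with intervals that all included 0.

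Levels of different genes were compared per kilobase of exon (CPM per kb). In untreated WT mice at 155 days the order was Gas6 (77.4 ± 5.7), Axl (13.6 ± 1.2), Tyro3 (10.9 ± 1.1), Pros1 (6.90 ± 0.67), Mfge8 (6.11 ± 0.66) and Mertk (4.40 ± 2.497), as mean ± SD of n = 4. Ranges of neighbours overlapped for Axl and Tyro3, for Pros1 and Mfge8, and for Mfge8 and Mertk. In untreated G93A mice the order was Gas6 (81.3 ± 6.9), Axl (46.0 ± 10.2), Pros1 (27.9 ± 8.5), Tyro3 (9.68 ± 0.95), Mertk (9.34 ± 3.63) and Mfge8 (6.41 ± 0.67). Here Axl and Pros1 overlapped, Pros1 and Tyro3 did not, and the last 3 overlapped as neighbours. Gas6 was the highest of the 6 genes per kb in all 8 groups, with no overlap with the next.

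The summed level of the 3 receptors was 28.9 ± 0.41 CPM per kb in untreated WT and 65.0 ± 12.8 CPM per kb in untreated G93A mice at 155 days (SD, n = 4 each). Axl made up 47.1 ± 4.7% of that sum in WT and 70.5 ± 2.0% in G93A mice, while Tyro3 went from 37.8 ± 4.1% to 15.5 ± 4.1%. The share of Mertk was 15.2 ± 8.4% in WT and 14.02 ± 2.8% in G93A mice. In treated mice Axl went from 47.0 ± 2.4% to 69.8 ± 0.41%. At 90 days the Axl share lay between 31.6% and 44.7% in all mice.

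**Figure D3:**
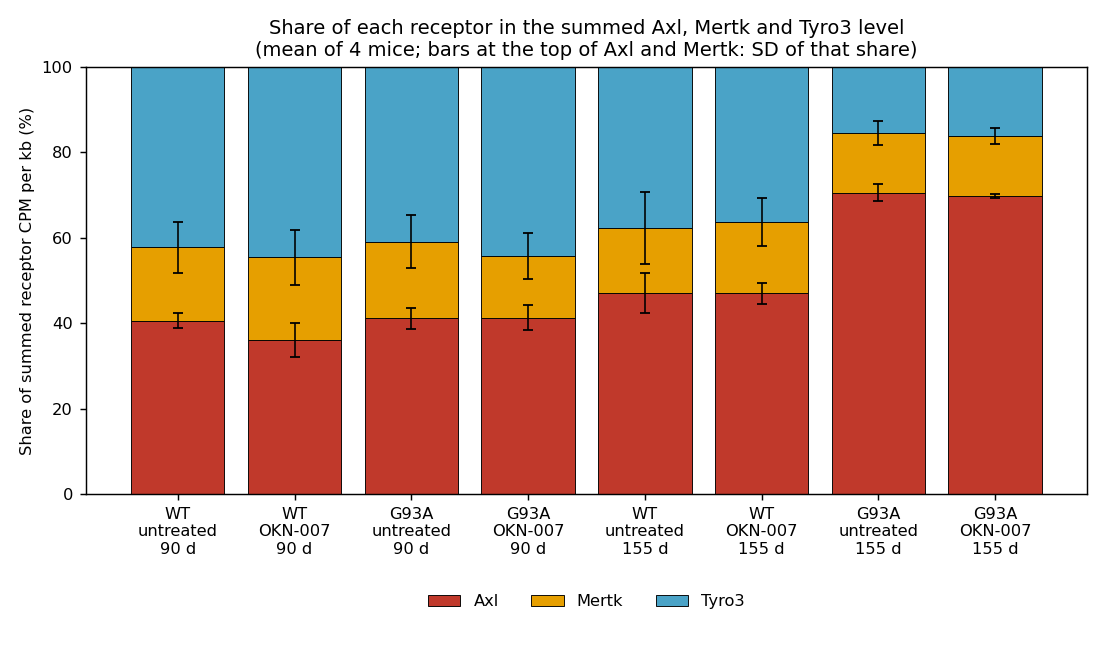
Share of Axl, Mertk and Tyro3 in their summed CPM per kb of exon (vertical axis, percent) in each group, as means of 4 mice. Bars at the top of the Axl and Mertk segments are the SD of that share; the Axl segment is largest in both G93A groups at 155 days, at 70.5% and 69.8%.

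Ratios within a library do not depend on its scaling and were compared by an exact two-sided permutation test of 4 against 4 mice, in which no p can be below 0.0286. The log2 ratio of Axl to Tyro3 counts was 1.93 ± 0.44 in untreated G93A and 0.02 ± 0.08 in untreated WT mice at 155 days (SD, n = 4 each; exact permutation p = 0.0286, 0.0686 after Benjamini-Hochberg over the 12 ratio tests). In treated mice it was 1.82 ± 0.19 and 0.08 ± 0.10, with the same p. The log2 ratio of Gas6 to Pros1 was 0.91 ± 0.33 in untreated G93A and 2.81 ± 0.22 in untreated WT mice (exact permutation p = 0.0286, adjusted 0.0686). This ratio was lower in G93A mice, with a difference of -1.90 on the log2 scale in untreated and -1.98 in treated mice. The Axl to Mertk ratio differed by 0.59 in untreated mice (exact permutation p = 0.229, adjusted 0.343) and by 0.77 in treated mice (exact permutation p = 0.0286, adjusted 0.0686). At 90 days no ratio had an exact p below 0.171. With 12 tests and this smallest p, none passed after adjustment.

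Among the 8 G93A mice at 155 days, the spread of the 6 genes was compared with marker scores, each the mean log2(CPM + 1) of a list. All genes and scores share the same libraries, so relations of a gene with different scores are not independent of each other. Axl had a Pearson r of 0.94 with the microglia score (exact permutation p = 0.00181, adjusted 0.00815 over 18 relations) and a Spearman rho of 0.98 (exact permutation p = 0.000397, adjusted 0.00357). Without the 2 mice farthest from the median score r was 0.90. With the astrocyte score Axl had an r of 0.96 (exact permutation p = 0.000273, adjusted 0.00491) and a rho of 0.98, and r was 0.95 without the 2 farthest mice. Pros1 had an r of 0.91 with the microglia score (exact permutation p = 0.00303, adjusted 0.0109; rho 0.83, adjusted 0.0554) and of 0.95 with the astrocyte score (exact permutation p = 0.000620, adjusted 0.00558; rho 0.86, adjusted 0.0482). Without the 2 farthest mice these were 0.94 and 0.90. Gas6 had an r of 0.78 with the microglia score (exact permutation p = 0.0166, adjusted 0.0332; rho 0.71, adjusted 0.0942), and its values of 0.71 and 0.70 with the activated microglia and astrocyte scores did not pass after adjustment. Mertk had an r of 0.82 with the microglia and 0.92 with the astrocyte score (exact permutation p = 0.0137 and 0.00139, adjusted 0.0309 and 0.00815), and its rho of 0.71 and 0.81 did not pass after adjustment (0.0942 and 0.0559). Tyro3 had negative values with all 3 scores, from -0.53 to -0.35, and Mfge8 had values from 0.22 to 0.55, none with an exact p below 0.158. Leaving out 1 mouse moved these values: without G93A untreated replicate 9, Mfge8 had an r of 0.80 with the microglia and 0.59 with the astrocyte score, and without replicate 12 of 0.30 and 0.015. Without G93A untreated replicate 11, Tyro3 had an r of -0.03 with the microglia and -0.25 with the astrocyte score. With the activated microglia score r was 0.86 for Axl, 0.89 for Pros1 and 0.79 for Mertk (exact permutation p = 0.00742, 0.00379 and 0.0219, adjusted 0.0191, 0.0114 and 0.0394). The rho values were 0.88, 0.79 and 0.62 (exact permutation, adjusted 0.0435, 0.0559 and 0.172), and without the 2 farthest mice r was 0.72, 0.68 and 0.60. The Hox score had an r of -0.02 with Axl, 0.12 with Pros1, 0.23 with Mertk, -0.15 with Gas6, -0.35 with Tyro3 and -0.79 with Mfge8 in the same mice. These values have no test and describe the spread among G93A mice, not their difference from WT mice.

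Genes with the most similar spread, up to 3 for each of the 6, were named from deviations of log2(CPM + 1) from the group means over all 32 mice, as a description with no test; all values share library and depth. Genes close to Axl were Cpq (r = 0.84), a peptidase, and Ifngr1 (0.83), a chain of the interferon gamma receptor. Pros1 was closest to Grn (0.89), which encodes the lysosomal protein progranulin, to AC102342.2 (0.89) and to Hk2 (0.87), a hexokinase. Gas6 was closest to Sdcbp (0.89), the adaptor syntenin, Hsd17b12 (0.88) and Capn1 (0.85), a calpain protease. Tyro3 was closest to Dnajb2 (0.86), a chaperone, Tmem88b (0.86) and Gng8 (0.83), a G protein subunit. Mfge8 was closest to Plpp2 (0.80), Lmf1 (0.78) and Hmcn2 (0.75). Among the 6 genes themselves, Axl went with Pros1 (r = 0.59) and Gas6 (0.52), and Mertk went against Tyro3 (-0.60).

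The genes closest to Mertk were Plin4 (r = 0.93), a lipid droplet protein, Zbtb16 (0.93), a zinc finger factor, and Nrros (0.92), a microglial regulator of TGF-beta. Plin4 and Zbtb16 are known to be induced by glucocorticoids, and a list of 10 such genes (Fkbp5, Zbtb16, Tsc22d3, Sgk1, Cdkn1a, Klf9, Per1, Plin4, Ddit4 and Sult1a1) was chosen after these values were seen. All 10 had positive values with Mertk, from 0.65 for Sgk1 to 0.93 for Plin4, and their mean score had an r of 0.85 with Mertk over 32 mice, 0.87 at 90 days and 0.84 at 155 days. Tyro3 had an r of -0.62 with the score, and Axl, Gas6, Pros1 and Mfge8 between -0.03 and 0.28. In untreated WT mice at 155 days, replicate 4 had 35.2 CPM of Mertk, 29.5 CPM of Plin4 and 49.9 CPM of Zbtb16, while the other 3 mice had at most 15.2, 1.90 and 9.99 CPM. In untreated G93A mice at 155 days replicate 11, the highest for Mertk at 61.9 CPM, had 157.7 CPM of Plin4, and the other 3 had at most 10.8 CPM. With the score as a covariate, an alternative added after the data were seen, the log2 fold change of Mertk at 155 days was 0.86 in untreated (adjusted p = 0.000950, edgeR) and 0.93 in treated mice (adjusted p = 0.000274, edgeR). In that fit the interactions with age also passed, at 0.78 in untreated (adjusted p = 0.0288, edgeR) and 0.96 in treated mice (adjusted p = 0.00748, edgeR). Since Mertk itself led to the list, these values are not independent of it.

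**Figure D4:**
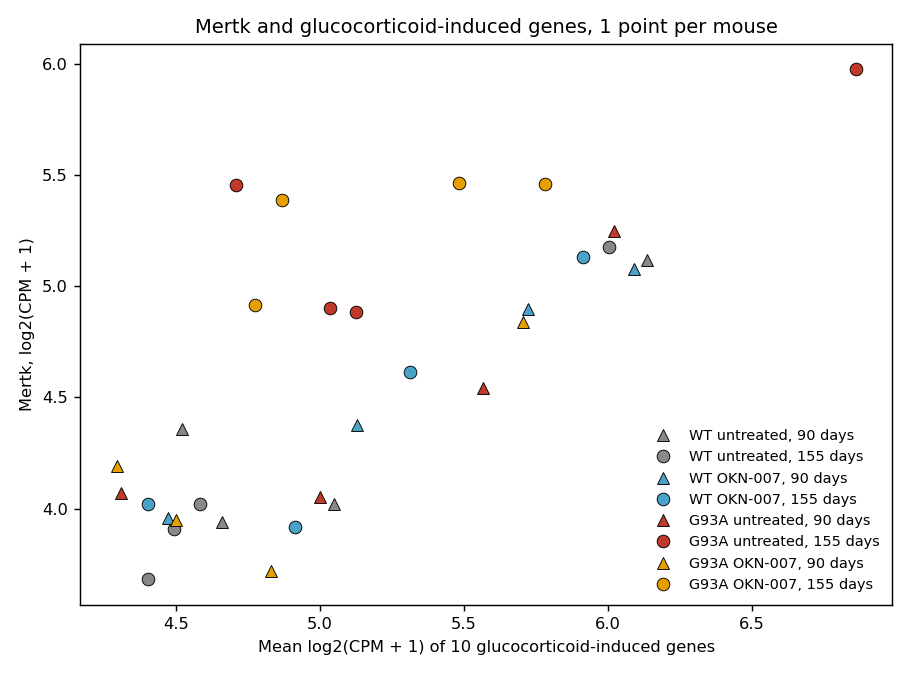
Mertk as log2(CPM + 1) on the vertical axis against the mean log2(CPM + 1) of 10 glucocorticoid-induced genes on the horizontal axis, with 1 point per mouse, triangles for 90 days and circles for 155 days. Mertk and the score have an r of 0.85 within groups, and at a score under 6 the G93A mice at 155 days lie above other mice with a like score.

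Other genes of the PS pathway were taken from lists and compared in the same fits at 155 days. Of 18 PS receptors and bridging proteins, 16 were tested, and 10 were higher and 2 lower in untreated G93A mice, with the same counts in treated mice; the median log2 fold change was 0.75 and 0.79. The largest were the PS-binding receptors Cd300lb, from 0.19 ± 0.056 to 2.62 ± 0.93 CPM (log2 fold change 3.80, adjusted p = 4.57e-07, edgeR), and Cd300lf, from 0.50 ± 0.26 to 6.80 ± 3.09 CPM (3.79), each as mean ± SD of n = 4. Cd300a at 3.02 and Havcr2, which encodes the PS receptor TIM-3, at 2.73 followed. The WT mean of Cd300lb was near the limit of detection of 0.152 CPM, so its fold change rests on few counts in WT mice. Of the integrin chains, Itgb5 (1.75) and Itgav (0.51) were higher, which together form a receptor for Mfge8, and Itgb3 did not pass (0.17).

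Of 10 genes of the engulfment machinery that receptors feed into, 4 were higher and 1 lower in untreated mice, and 5 and 2 in treated mice, with a median log2 fold change of 0.13 and 0.15. Vav1, an exchange factor for Rac, was at 2.71 and Plcg2, a phospholipase, at 1.85, while Dock1 was at 0.35 and Vav3 at -0.44. Of 8 tested genes that expose PS or return it to the inner membrane leaflet, 2 were higher and 5 lower in untreated mice, and 2 and 1 in treated mice, and the median was -0.34 and -0.15. Ano6, a scramblase, was at 0.96 and the flippase gene Atp8a2 at -0.74, with Xkr4 at -0.68 and the flippase subunit Tmem30a at -0.39. In treated mice Ano6 and Atp8a2 passed again (1.04 and -0.88), whereas Xkr4 was at 0.06 (adjusted p = 0.846, edgeR) and Tmem30a at -0.23 (adjusted p = 0.0714, edgeR). All counts are at an adjusted p under 0.05 in edgeR, against 21.3% of genes higher in untreated and 23.3% in treated mice and 18.2% lower in each.

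Of 5 genes for Gla domain maturation and receptor shedding, 3 were higher and 1 lower in both comparisons, with medians of 0.28 and 0.42. Adam17, a protease that releases the Mertk ectodomain, was at 0.76, Adam10, which acts on Axl, at 0.28, Vkorc1, the vitamin K reductase, at 0.62 and its relative Vkorc1l1 at -0.22. Of 5 genes of the interferon receptor and SOCS arm through which TAM receptors restrain cytokine signalling, 4 were higher in both comparisons and none was lower. Socs3 rose from 2.22 ± 0.62 to 33.6 ± 16.7 CPM (SD, n = 4; log2 fold change 3.96, adjusted p = 4.57e-09, edgeR), and Ifnar2 was at 0.98 and Ifnar1 at 0.43. Of 3 nuclear receptor genes that act on Mertk transcription, Nr1h3 (LXR alpha) was higher at 0.47 in untreated and 0.50 in treated mice, and Nr1h2 and Rxra did not pass; the median was -0.06 and -0.01.

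Of 6 genes for other signals on prey or phagocyte, 5 were tested, and 3 were higher and 2 lower in both comparisons, with medians of 0.29 and 0.25. Lgals3, which encodes galectin-3, a further ligand of Mertk, rose from 1.83 ± 0.85 to 80.9 ± 21.4 CPM (SD, n = 4), a log2 fold change of 5.53 (adjusted p = 1.41e-11, edgeR). Tub, another reported ligand gene of the family, fell by 0.40 on the log2 scale from 100.8 ± 11.7 CPM. Sirpa, the phagocyte receptor for Cd47, was at 0.99 and Calr, calreticulin, at 0.29. At 90 days, none of the genes tested from these lists passed in untreated mice, where 0 of all 18899 genes passed (0% called). Lgals3 had a log2 fold change of 2.18 there (standard error 0.38, adjusted p = 0.169, edgeR).

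**Figure D5:**
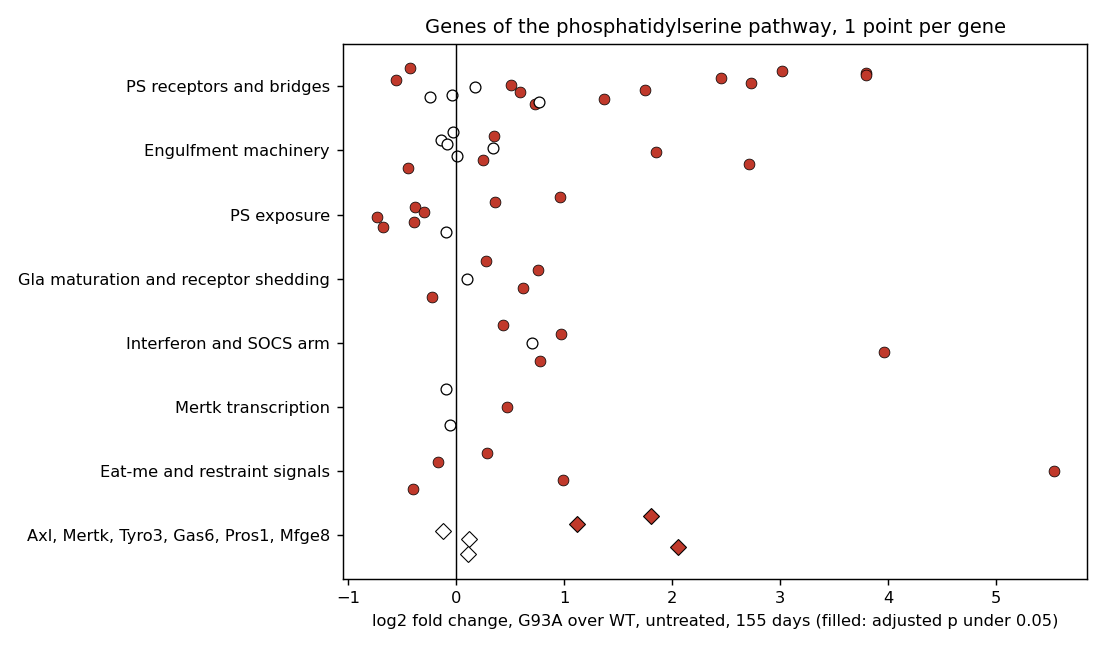
The log2 fold change of untreated G93A over untreated WT mice at 155 days (horizontal axis), with 1 point per gene tested in each list and diamonds for Axl, Mertk, Tyro3, Gas6, Pros1 and Mfge8. Filled symbols had an adjusted p under 0.05; Lgals3 at 5.53 and Socs3 at 3.96 lie farthest to the right.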

How the data were processed

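Spinal cord RNA of 32 mice was sequenced by the authors from stranded mRNA libraries. According to the study's methods, reads were trimmed with Trimmomatic, aligned with STAR to GRCm38 and counted with HTSeq on GENCODE M10; the submitters' processing notes instead name featureCounts and the builds GRCm39, mm39 and hg38, without saying what the human build was used for. The deposited table holds raw counts per gene, not normalized, and every column belongs to 1 sample, called a mouse here. Of its 42524 genes, 41203 (96.9%) were paired with symbols through GENCODE M21, and 1306 have identifiers numbered above the last of M21, so the annotation used for counting is later than M21. Whether counting used strand is not given in the sources used here.

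The counts were fitted in R 4.3.3 with edgeR 4.0.16 (filterByExpr, TMM, estimateDisp, glmQLFit and glmQLFTest), with the 4 groups of an age together, and with all 32 mice for comparisons of ages. The Benjamini-Hochberg correction covered every gene fitted, with 0.05 as the threshold. Standard errors come from the quasi-likelihood F statistic. Levels per kb used the exon bases of M21. Ratios used counts with 0.5 added. Exact permutation tests used numpy 2.4.6 and scipy 1.17.1. Total counts were 19701722 to 30138257 per mouse. Alternatives were RLE factors, no filter, DESeq2 1.42.0, a Hox score covariate, a stricter threshold of 0.01, a minimum change of 1 on the log2 scale, other sets of mice, a replicate block and leaving out each mouse; a glucocorticoid score covariate and leaving out the 3 mice with most Alb were added after seeing the data. The genes and lists were chosen with earlier results of these data known. All 6 genes were tested in every comparison, and values are given for them and for up to 4 genes per list by the largest change past the threshold in untreated mice at 155 days (Itgb5, Itgav, Itgb3, Nr1h2, Rxra and the glucocorticoid genes outside this rule were chosen after their values were seen), and up to 3 most similar genes; items withheld from the text are not reported here. The scripts were tested on simulated data. No pair of libraries in a group was alike within sampling noise (smallest chi-square 3.80 per gene).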

Additional observations from a re-analysis of the deposited data

Results flagged for a closer look

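In 48 sets of 4 mice (6 genes in 8 groups), 3 held a mouse farther from the others than Dixon's 95% critical value, where chance gives about 1 in 20, or 2.4. Mertk was at 35.2 CPM in WT untreated replicate 4 at 155 days, and the next mouse of the group was at 15.2 CPM. It was at 29.2 CPM in G93A OKN-007 replicate 16 at 155 days, where the next was at 40.8 CPM. Pros1 was at 33.3 CPM in WT untreated replicate 2 at 90 days, where the next was at 37.5 CPM.

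The G93A change differed between ages, by edgeR's test of the interaction, for Axl (1.69 on the log2 scale in untreated and 1.501 in treated mice) and for Pros1 (1.96 and 1.94).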

How the results depend on the processing

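Axl and Pros1 kept their direction and their side of the threshold in all comparisons of G93A with WT mice at 155 days, in both interactions with age and in the age comparison of WT mice, under every alternative run, except that their age changes in WT mice were under 1 on the log2 scale. The fit with the Hox score is among these alternatives, and at 155 days it can hardly separate that score from genotype. Of the 6 genes, 4 were called in treated mice at 155 days; 2 were called at an adjusted p under 0.01 (5588 of all 18675 genes), 2 with a log2 fold change of at least 1, and between 2 and 4 when 1 mouse was left out. Averaged over treatments at 155 days, 5 were called, and 3 with the Hox score as a covariate, at an adjusted p under 0.01 (8051 of all genes) and with a log2 fold change of at least 1 (1806). Of the 4 called between ages in WT mice, 0 had a log2 fold change of at least 1. Gas6 averaged over treatments was lost with RLE factors (0.12), with no filter (0.14) and with all 32 mice in one fit (0.12), and in treated mice it was called with only the 2 groups compared (0.15, adjusted p = 0.0426). The interaction of Mertk with age in treated mice passed with no filter (1.27, adjusted p = 0.0435) and with the Hox score (1.51, adjusted p = 0.0341). With the glucocorticoid score, the age comparison called Tyro3 (-0.19, adjusted p = 0.0172). The causes were not tested. Over all genes at 155 days, 1717 in untreated and 1888 in treated mice had a log2 fold change of at least 1, of 7378 and 7747 called. Adding 5 to each count instead of 0.5 moved no ratio by more than its SD.

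Replicate numbers recur between the ages but mark different mice. Of 16 pairs of the same number, 4 had a correlation of their deviations over 0.1 (range -0.22 to 0.26) and 3 correlated best with their own number. The labels do not say what the number marks, and these correlations cannot show whether the samples share anything besides it. With the replicate block, the 2 genes called in the untreated interaction and the 4 in the age comparison were the same in number, and 3 were called in treated mice, where Mertk was at 1.39 (adjusted p = 0.0374, edgeR). With 4 mice per group the precision was lowest for Mertk.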
